A study of Drosophila melanogaster with 8 samples.

Results

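Axonemal dynein heavy chains are the motor subunits that make sperm tails and motile cilia bend. The genes described are 7 of 8 listed heavy chain genes of Drosophila melanogaster, found by name in a table of 12051 genes from testis. They are the Y-linked fertility factors kl-2, kl-3 and kl-5, the X-linked Dhc16F, and Dhc36C, Dhc62B and Dhc98D on autosomes. Dhc93AB, the remaining gene of the list, was not analysed here.

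RNA came from testis lysates of wild-type (WT) flies, aged between day 2 and day 7, from which ribosomes were precipitated with antibodies to eRpL22-like or to eRpL22. The paralogues are alternative proteins of the large ribosomal subunit, both present in germ cells of the testis, and the study looked at the RNAs carried by ribosomes with one or the other. The labels list 4 libraries for each pulldown. The table holds 4 eRpL22-like libraries and 3 eRpL22 libraries, and eRpL22 replicate 4 was not analysed here. Both groups are pulldowns from the same genotype, with no input RNA and no mock pulldown, so retention on ribosomes cannot be told apart from background that both share. The labels do not say whether replicates were separate cultures or dissections, so every p-value measures library-to-library spread that may be technical.

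As background, an axonemal dynein pulls on the neighbouring microtubule doublet of the axoneme through its heavy chain, a very large protein whose ring of ATPase modules drives the stroke. Outer arms supply much of the beat force and inner arms shape the waveform. In flies these motors are used in sperm and in a few ciliated sensory neurons, such as the chordotonal neurons of hearing. The Y-linked heavy chain genes are transcribed in spermatocytes, where they form lampbrush-like loops, and they carry very large introns rich in satellite repeats. Males that lack kl-3 or kl-5 lack outer dynein arms and are sterile. The coding regions of all heavy chains are long, and how reads that match several family members were counted is not given in the sources used here, so values of single members carry that uncertainty.

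Values are the authors' normalized reads, in which 1 sequenced read corresponds to 0.747 to 1.50 normalized reads depending on the library. Libraries held 22448043 to 25159184 recovered reads with eRpL22-like and 15971685 to 26346787 with eRpL22. A count of 0 allows up to 3 reads, or 2.24 to 2.80 normalized reads with eRpL22-like and 2.38 to 4.49 with eRpL22, counting error only. Of the 9 germline genes listed as a check of the tissue, all were detected in at least 1 library of each pulldown, and the sperm tail transcripts Mst87F and dj averaged 111023 ± 17750 and 87943 ± 10494 normalized reads with eRpL22-like (SD, n = 4), against 138867 ± 23402 and 109127 ± 6551 with eRpL22 (SD, n = 3). Two-sided limma tests of log2(normalized reads + 1) with Benjamini-Hochberg adjustment called 0 of 11174 genes at 0.05 (0%), with 4.11% at an unadjusted p under 0.05. edgeR also called none, with 6.38% at an unadjusted p under 0.05, and DESeq2 called 125 of the 9187 genes to which it gave an adjusted p (1.36%), with 9.52% at an unadjusted p under 0.05.

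No heavy chain passed the test between the pulldowns, and none separated them. Of the 7 genes, 0 were called by limma, edgeR, DESeq2 or the authors' deposited table, in which 21 of 12051 genes had an adjusted p under 0.05 (0.174%). For all 7 the library values overlapped between the pulldowns, where 5.14% of genes tested had none overlapping. On the limma scale 5 had negative and 2 positive log2 fold changes of eRpL22-like over eRpL22, with a median of -0.22, against 51.2% negative and a median of -0.03 over all genes tested. This balance turned with the method, as 4 were positive and 3 negative in the authors' deposited table, and the median was 0.077 with edgeR, 0.077 with DESeq2 and 0.32 in limma without eRpL22-like replicate 1. 1 of the 7, kl-3, had an unadjusted p under 0.05.

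**Figure D1:**
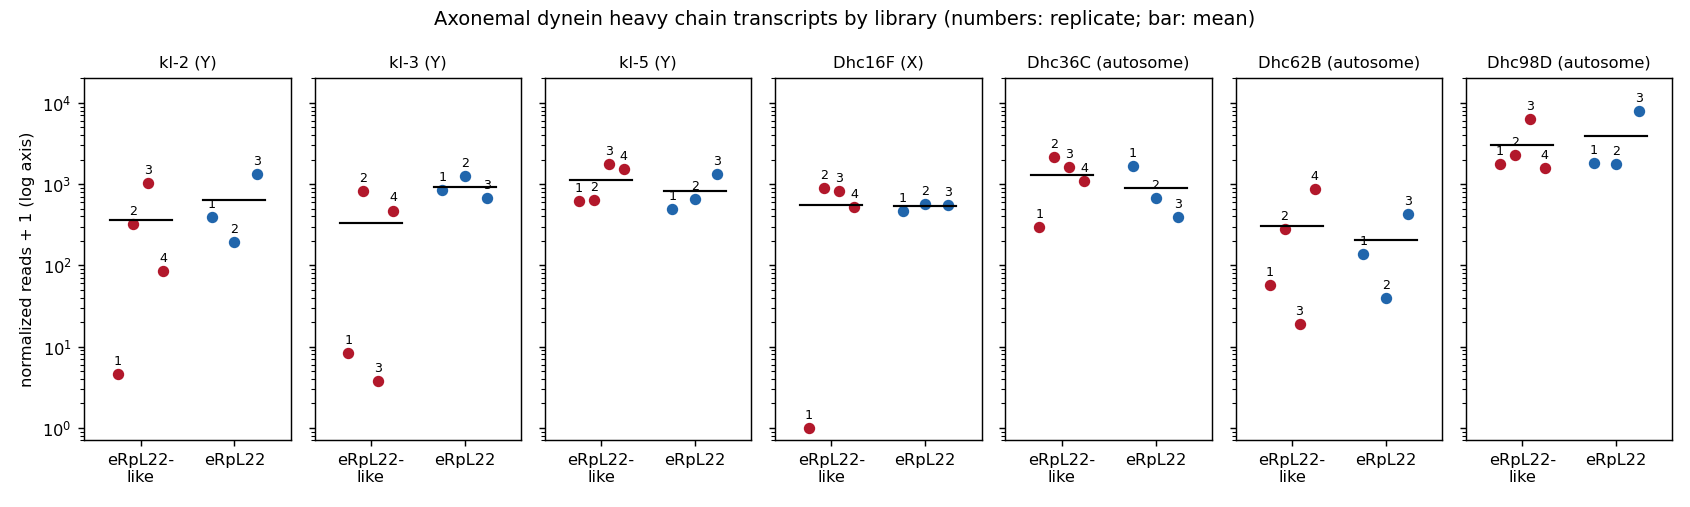
Normalized reads + 1 (log axis) of each heavy chain gene in each library, eRpL22-like left and eRpL22 right, with the replicate number beside each point and a bar at the mean of the pulldown. kl-2, kl-3 and Dhc16F each have eRpL22-like libraries at 8 reads or fewer, and for every gene the libraries of the pulldowns overlap.

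Among the Y-linked genes, kl-3 had the lowest mean with eRpL22-like relative to eRpL22. Its normalized reads were 7.29, 833, 2.80 and 472 in eRpL22-like replicates 1, 2, 3 and 4, against 849, 1251 and 678 in eRpL22 replicates 1, 2 and 3. The eRpL22-like libraries fell into a near-absent pair, with 8 and 3 recovered reads, and a well represented pair, the higher of which lay above the lowest eRpL22 library. Means were 329 ± 402 with eRpL22-like (SD, n = 4) and 926 ± 294 with eRpL22 (SD, n = 3), a ratio of 0.355. The limma log2 fold change was -3.92 ± 1.83 (SE), with a 95% interval of -7.63 to -0.20, an unadjusted p of 0.0393 and an adjusted p of 0.945.

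The estimate for kl-3 depended on the way the libraries were averaged. The authors' deposited table gave a log2 fold change of -1.49 with an adjusted p of 0.875. The limma value averages logarithms, in which the near-absent libraries weigh heavily, whereas DESeq2 compares mean reads. With eRpL22-like replicate 1 or 3 left out the limma value was -2.97 or -2.60, at unadjusted p-values of 0.137 and 0.129.

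kl-2, another Y-linked gene needed for male fertility, showed the same kind of scatter with a different order of libraries. It had 3.64, 319, 1019 and 84.2 normalized reads in eRpL22-like replicates 1 to 4, against 395, 191 and 1342 in eRpL22 replicates 1 to 3. The near-absent library was eRpL22-like replicate 1, with 4 recovered reads, while eRpL22-like replicate 3, where kl-3 was near absence, held the second highest value of kl-2 of all libraries. Means were 357 ± 462 with eRpL22-like (SD, n = 4) and 642 ± 614 with eRpL22 (SD, n = 3), and the limma log2 fold change was -2.13 ± 1.75 (SE; adjusted p = 0.945). It was -0.62 without eRpL22-like replicate 1, and -0.85 in the authors' deposited table.

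kl-5 encodes a beta heavy chain of the outer arm and was the most evenly represented of the 7 genes. It had 615, 641, 1746 and 1548 normalized reads in eRpL22-like replicates 1 to 4, against 492, 663 and 1317 in eRpL22 replicates 1 to 3. All libraries held at least 329 recovered reads of it, and the highest library was 3.55 times the lowest. Means were 1137 ± 594 with eRpL22-like (SD, n = 4) and 824 ± 436 with eRpL22 (SD, n = 3), with a limma log2 fold change of 0.43 ± 0.84 (SE) and an adjusted p of 0.968. Its 95% interval, -1.27 to 2.13, allows a ratio between 0.415 and 4.36. Males need kl-3 and kl-5 for the same arm. The estimates for the pair had opposite signs, and a difference between the genes was not tested.

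Dhc16F, the X-linked member and an inner-arm type heavy chain, lay within 462 to 905 normalized reads in 6 of the 7 libraries. It had 0, 905, 813 and 518 normalized reads in eRpL22-like replicates 1 to 4, against 462, 569 and 559 in eRpL22 replicates 1 to 3. A single library, eRpL22-like replicate 1, listed no read. The means were close, at 559 ± 408 with eRpL22-like (SD, n = 4) and 530 ± 59.2 with eRpL22 (SD, n = 3). The limma log2 fold change of -1.92 ± 1.78 (SE; adjusted p = 0.945) rested on the empty library, since it was 0.46 without it, and the authors' deposited table gave 0.08.

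Dhc36C, an autosomal inner-arm type heavy chain, had no near-absent library. It had 299, 2131, 1616 and 1090 normalized reads in eRpL22-like replicates 1 to 4, against 1652, 666 and 389 in eRpL22 replicates 1 to 3. The lowest library was again eRpL22-like replicate 1, and the other eRpL22-like libraries all lay above eRpL22 replicates 2 and 3. Means were 1284 ± 782 with eRpL22-like (SD, n = 4) and 902 ± 664 with eRpL22 (SD, n = 3), with a limma log2 fold change of 0.45 ± 0.87 (SE) and an adjusted p of 0.968. It was 1.04 without eRpL22-like replicate 1, 1.01 without eRpL22 replicate 1 and -0.03 without eRpL22 replicate 3.

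Dhc62B, also an inner-arm type heavy chain, varied widely between libraries of both pulldowns. It had 56.5, 276, 17.8 and 881 normalized reads in eRpL22-like replicates 1 to 4, against 136, 38.7 and 431 in eRpL22 replicates 1 to 3. The eRpL22 libraries all lay within the range of the eRpL22-like libraries, and recovered reads ranged from 19 to 1151 over all libraries. The means, 308 ± 399 with eRpL22-like (SD, n = 4) and 202 ± 205 with eRpL22 (SD, n = 3), gave a limma log2 fold change of -0.06 ± 1.96 (SE; adjusted p = 0.997). The interval from -4.04 to 3.92 shows that changes of several fold were not detectable for this gene, and the authors' deposited table gave the opposite sign, at 0.61.

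Dhc98D, another autosomal axonemal heavy chain, had the narrowest interval of the 7 genes. It had 1776, 2281, 6309 and 1590 normalized reads in eRpL22-like replicates 1 to 4, against 1827, 1753 and 8013 in eRpL22 replicates 1 to 3. In each pulldown replicate 3 stood well above the other libraries, which agreed to within 1590 to 2281 normalized reads. Means were 2989 ± 2233 with eRpL22-like (SD, n = 4) and 3864 ± 3593 with eRpL22 (SD, n = 3), and the limma log2 fold change was -0.22 ± 0.58 (SE), with a 95% interval of -1.40 to 0.95 and an adjusted p of 0.973. The value was -0.66 without eRpL22-like replicate 3 and 0.50 without eRpL22 replicate 3.

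**Figure D2:**
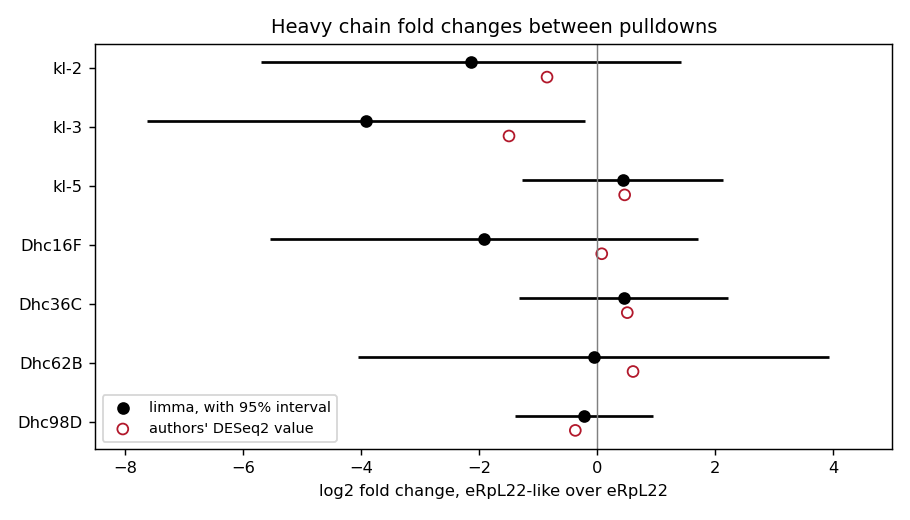
Log2 fold changes of eRpL22-like over eRpL22 for the 7 genes, from limma with 95% intervals (filled points) and from the authors' deposited table (open points). The limma intervals include 0 for every gene but kl-3, whose adjusted p was 0.945, and the estimates differ most for kl-2, kl-3 and Dhc16F, the genes with near-absent libraries.

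As groups, the Y-linked and the other heavy chains were not tested against each other, and their values are given as a description. Of the 3 Y-linked genes 1 was positive and 2 negative with a median limma log2 fold change of -2.13, and of the 4 X-linked and autosomal genes 1 was positive and 3 negative with a median of -0.14. For these 4 genes the authors' deposited table had 3 positive values, and the median was 0.30 with edgeR, 0.29 with DESeq2 and 0.18 with quantile normalization. With so few members these medians are the values of 1 or 2 genes, and without eRpL22-like replicate 1 they were -0.62 for the Y-linked and 0.39 for the other genes. Summed over the Y-linked genes, normalized reads ranged from 626 to 2769 in the eRpL22-like libraries and from 1736 to 3338 in the eRpL22 libraries. Summed over the others they ranged from 2131 to 8755 with eRpL22-like and from 3027 to 9394 with eRpL22. The Y-linked share of the heavy chain sum was 22.7% to 34.0% with eRpL22-like and 26.2% to 41.0% with eRpL22, and these ranges overlap. All 7 genes together took 0.0120% to 0.0549% of the recovered reads with eRpL22-like and 0.0243% to 0.0609% with eRpL22. The lowest sum of either kind was in eRpL22-like replicate 1, and the highest in eRpL22 replicate 3. Fewer cells of a type and less RNA per cell cannot be told apart in such samples.

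**Figure D3:**
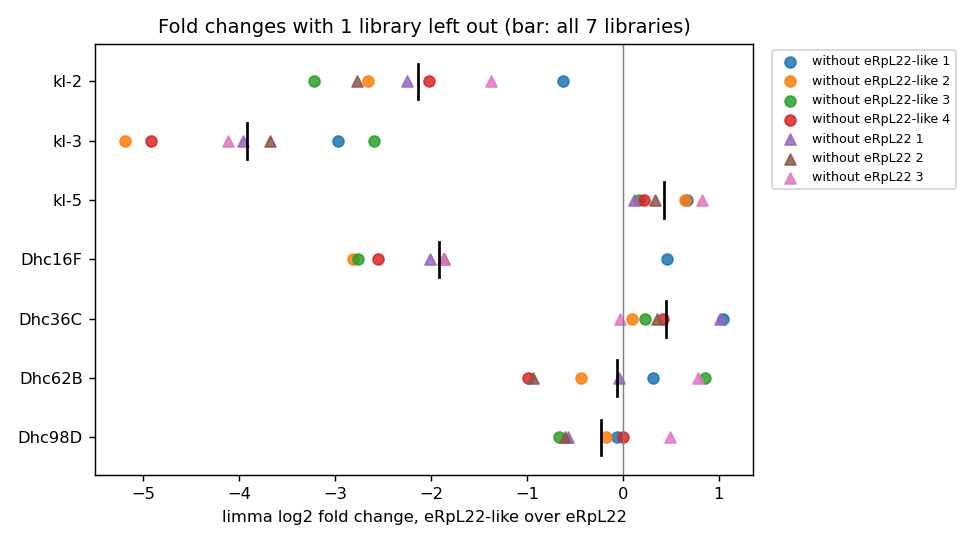
Limma log2 fold change of each gene with 1 library left out (circles for eRpL22-like libraries, triangles for eRpL22 libraries), with a bar at the value from all 7 libraries. Dhc16F is at 0.46 without eRpL22-like replicate 1 and at -1.92 with all libraries, while kl-2 and kl-3 stay negative and kl-5 positive throughout.

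The members with near-absent libraries had fewer reads on average than kl-5, Dhc36C and Dhc98D, and such libraries were common among genes with as few reads. Of the 49 values of the 7 genes, 4 were at 10 recovered reads or fewer, and they belonged to kl-2, kl-3 (2 values) and Dhc16F. These genes and Dhc62B had means between 100 and under 1000 normalized reads, a class of 5090 genes in which 62.4% had at least 1 library at 10 reads or fewer. kl-5, Dhc36C and Dhc98D had means between 1000 and under 5000, where 3.87% of 2713 genes had such a library. The near-absent values of heavy chains were all in eRpL22-like replicates 1 and 3. In these libraries 29.8% and 31.3% of the genes of the class with fewer reads were at 10 reads or fewer, against 10.6% and 13.3% in eRpL22-like replicates 2 and 4 and 19.2% to 22.7% in the eRpL22 libraries. The part of this library difference in the values of kl-2, kl-3 and Dhc16F was not tested.

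Spread between libraries of a pulldown exceeded the counting error computed from mean reads for every heavy chain. The SD within pulldowns on the log2(normalized reads + 1) scale was 3.69 for Dhc16F, 3.09 for kl-3, 2.75 for kl-2 and 2.19 for Dhc62B, against a median of 2.80 in their class of mean reads. It was 1.18 for Dhc36C, 1.06 for Dhc98D and 0.78 for kl-5, against a class median of 0.81. At their mean reads, counting error alone would give 0.02 for Dhc98D and 0.08 for Dhc62B, the genes with the most and the fewest reads. For each heavy chain, between 23.7% and 63.9% of the genes of its class had a larger SD.

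**Figure D4:**
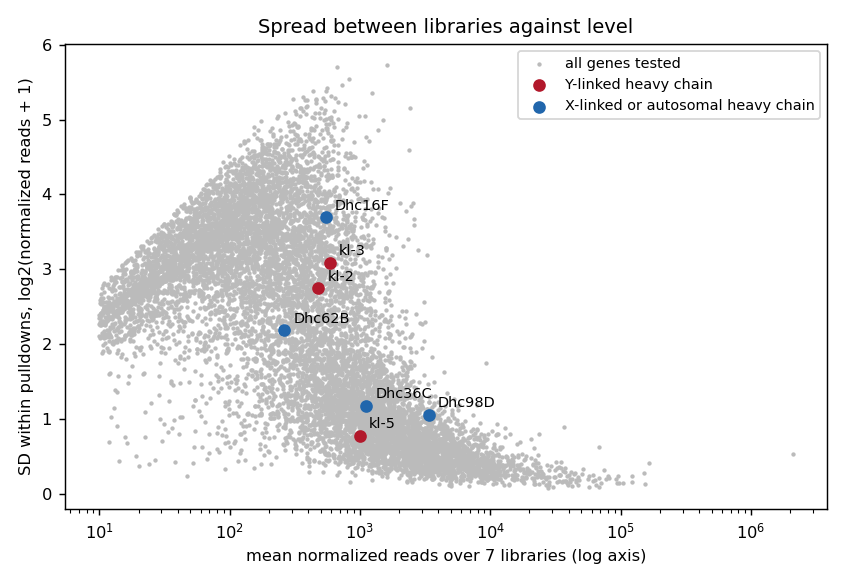
SD within pulldowns of log2(normalized reads + 1) against mean normalized reads over 7 libraries (log axis), for all genes tested (grey) and the heavy chains (coloured). The heavy chains lie within the cloud, with Dhc16F, kl-3, kl-2 and Dhc62B above 2 and kl-5, Dhc98D and Dhc36C below 1.2.

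Members did not share a single pattern over the libraries. kl-2, kl-5 and Dhc98D each had their highest eRpL22-like and highest eRpL22 value in replicate 3, whereas kl-3 had its lowest value of each pulldown there. Pearson correlations with the mean log2 profile of the 3 Y-linked genes, over 7 libraries that share their depth and handling, were 0.88 for Dhc16F, 0.47 for Dhc62B, 0.37 for Dhc36C and 0.26 for Dhc98D. The Y-linked genes, which form the profile, had 0.80 (kl-2), 0.80 (kl-3) and 0.13 (kl-5). Among the 8573 genes averaging 100 normalized reads or more, the non-members closest to this profile were mRpL12, a mitochondrial ribosomal protein gene (0.99), CG8509 (0.98) and CG11134 (0.98). Correlations of this size are found by searching many genes over few libraries, and they are given as a description. mRpL12, CG8509 and CG11134 had their lowest values in eRpL22-like replicate 1, at 33.7, 22.8 and 7.29 normalized reads. kl-2 and Dhc16F were also lowest there. The part of that library in the correlations was not tested.

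Other parts of the axonemal dynein complex also gave no call. In limma 0 of the 11174 genes tested were called, so 0 called here and in the gene lists below holds for any list. Of 9 listed intermediate and light chain genes 7 were in the table, with 3 positive and 4 negative limma log2 fold changes, a median of -0.20 and 0 called. CG10859, a predicted intermediate chain, averaged 8451 ± 3170 normalized reads with eRpL22-like (SD, n = 4) and 9468 ± 2844 with eRpL22 (SD, n = 3). CG8407, a predicted light chain, averaged 4111 ± 758 with eRpL22-like (SD, n = 4) and 5509 ± 1625 with eRpL22 (SD, n = 3). CG6971, now named Dnali1, a light intermediate chain, was the gene of this group without overlap and is named for it after its values were seen. It had 2746, 3188, 785 and 3626 normalized reads in eRpL22-like replicates 1 to 4, against 5391, 4866 and 3998 in eRpL22 replicates 1 to 3, with a limma log2 fold change of -1.08 (unadjusted p = 0.0448, adjusted p = 0.945). Without eRpL22-like replicate 3, its lowest library, the value was -0.57 (unadjusted p = 0.144). Over all genes tested, 5.14% had no overlap between the pulldowns and 4.11% had an unadjusted limma p under 0.05.

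Factors that assemble dynein arms in the cytoplasm or dock them on the axoneme were likewise divided. Of 11 assembly factors 10 were in the table, 4 positive and 6 negative, with a median of -0.24 and 0 called. CG5048, now Dnaaf6, averaged 8391 ± 2348 normalized reads with eRpL22-like (SD, n = 4) and 7980 ± 118 with eRpL22 (SD, n = 3), and Nop17l, of the PIH family, averaged 2894 ± 1464 with eRpL22-like (SD, n = 4) and 5687 ± 3678 with eRpL22 (SD, n = 3). Of 4 docking genes 3 were in the table, 1 positive and 2 negative, with a median of -0.07. CG17083, now wam, averaged 6045 ± 840 with eRpL22-like (SD, n = 4) and 7765 ± 1959 with eRpL22 (SD, n = 3). gudu, which encodes an armadillo-repeat protein needed for male fertility, averaged 3477 ± 592 with eRpL22-like (SD, n = 4) and 3783 ± 1359 with eRpL22 (SD, n = 3). Among the 13 assembly and docking genes only CCDC151 had a library without reads, and it held 1 read or none in 6 of the 7.

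Further heavy chain genes gave no call, as was true of every gene tested in limma. Dnah3, an inner-arm type heavy chain, averaged 2614 ± 1057 normalized reads with eRpL22-like (SD, n = 4) and 3540 ± 2203 with eRpL22 (SD, n = 3), a limma log2 fold change of -0.36 (adjusted p = 0.953). CG9492 was at 122, 2.24, 0 and 18.4 in eRpL22-like replicates 1 to 4, against 0, 334 and 0.79 in eRpL22 replicates 1 to 3. CG3339 reached 104 and 16.1 in eRpL22-like replicates 2 and 4 and had no read in any other library. The last 2 genes were thus near the floor in most libraries, and no direction can be read from them.

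Cytoplasmic dynein and dynactin genes gave 4 positive and 8 negative values among 12, a median of -0.03 and 0 called. The light chain genes ctp and Dlc90F averaged 4461 ± 2307 and 4039 ± 829 normalized reads with eRpL22-like (SD, n = 4), against 4173 ± 695 and 4540 ± 2627 with eRpL22 (SD, n = 3). Both had library values that overlapped between the pulldowns. Of 6 genes known to act on Y-loop transcripts or their RNA granules, 3 were positive and 3 negative with a median of -0.03 and 0 called. bol, an RNA-binding regulator of meiosis, averaged 20076 ± 8229 with eRpL22-like (SD, n = 4) and 16753 ± 3316 with eRpL22 (SD, n = 3), and blanks, a double-stranded RNA-binding protein of spermatocytes, averaged 7272 ± 1638 with eRpL22-like (SD, n = 4) and 7122 ± 2509 with eRpL22 (SD, n = 3). pont and rept encode ATPases that serve both in dynein arm assembly and in granules of kl-3 and kl-5 RNA, and they are counted in both groups.

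**Figure D5:**
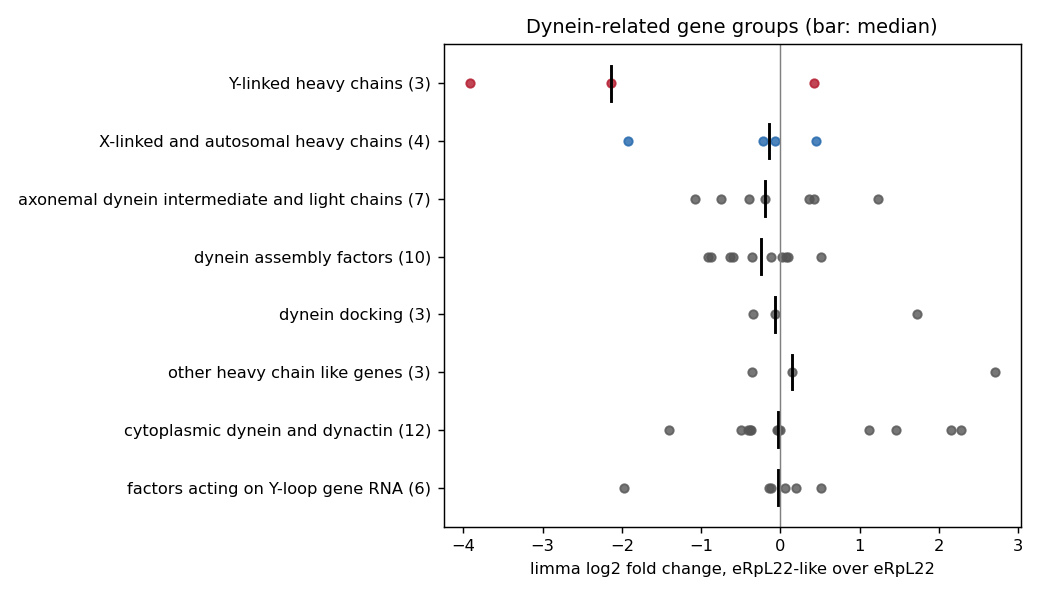
Limma log2 fold changes of eRpL22-like over eRpL22 for single genes (points) in each group, with the number of genes in parentheses and a bar at the group median. Each group drawn has genes on both sides of 0, and the Y-linked median of -2.13 is the value of kl-2.

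RNA of other cell types was present in both pulldowns, at levels that varied between libraries. Of 8 markers of neurons and ciliated sensory neurons 7 were in the table, and their summed normalized reads ranged from 374 to 2881 in the eRpL22-like libraries and from 178 to 1340 in the eRpL22 libraries. The sensory organ genes nompC, nompA and nan were at 0 in 6, 6 and 3 of the 7 libraries. Sums ranged from 2563 to 19812 with eRpL22-like and from 2466 to 5213 with eRpL22 for 5 muscle genes. They ranged from 17757 to 42233 with eRpL22-like and from 22470 to 34749 with eRpL22 for 5 accessory gland genes, and from 2257 to 3228 with eRpL22-like and from 1541 to 3216 with eRpL22 for 6 cyst and hub cell genes. Medians of the limma log2 fold change were 0.82 for 6 tested neuronal, 1.11 for muscle, 0.23 for accessory gland and 0.39 for cyst and hub cell markers, with 0 called. They moved with single libraries: without eRpL22-like replicate 4 the neuronal median was 0.081 and the muscle median 0.15, without eRpL22-like replicate 3 the accessory gland median was -0.094, and without eRpL22 replicate 1 or 2 the cyst and hub cell median was -0.70 or -0.45. The synaptic genes nSyb and brp averaged 805 ± 1120 and 142 ± 92.2 normalized reads with eRpL22-like (SD, n = 4), against 501 ± 715 and 15.2 ± 24.4 with eRpL22 (SD, n = 3). Mlc2, a myosin light chain of muscle, and the muscle actin Act57B averaged 3642 ± 5187 and 2989 ± 2657 with eRpL22-like (SD, n = 4), against 1048 ± 810 and 963 ± 380 with eRpL22 (SD, n = 3). The muscle list was divided, with 3 positive and 2 negative limma log2 fold changes, from -2.51 to 2.42. The cyst and hub cell list was divided as well, with 4 positive and 2 negative values. Its negative genes were tj (-1.23) and eya (-1.01), and the highest value was 1.44. The seminal fluid protein genes Acp36DE and Acp26Aa averaged 16440 ± 6822 and 5539 ± 3146 with eRpL22-like (SD, n = 4), against 17722 ± 7010 and 3486 ± 2420 with eRpL22 (SD, n = 3). The cell adhesion genes Fas3 and CadN averaged 1693 ± 472 and 564 ± 137 with eRpL22-like (SD, n = 4), against 1565 ± 979 and 397 ± 258 with eRpL22 (SD, n = 3), and all 8 of these markers overlapped between the pulldowns. The germline list had 2 positive and 7 negative limma log2 fold changes, from -2.61 to 3.11. Its median was -0.32 with 0 of 9 called, and -0.081 without eRpL22 replicate 3. Mst87F and dj, both at -0.32, had unadjusted limma p-values of 0.0083 and 0.0078 (adjusted p = 0.945 for both). An unadjusted p under 0.05 was found for 4.11% of all genes tested. The values of dj did not overlap between the pulldowns, as for 5.14% of all genes tested. The part of other cells in the heavy chain values was not tested.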

How the data were processed

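RNA was extracted with Trizol from immunoprecipitates and sequenced as 50-base single reads on an Illumina HiSeq, per the labels' protocols. Trimming with Trim Galore and cutadapt, alignment with STAR and testing with DESeq2 are named, without versions, per the submitters' processing notes. Genome build, annotation, read counter and strand setting were not given in the sources used, so no coordinates are printed, and chromosomes are those of a RefSeq gene table of the Release 6 assembly. The authors deposited a log2 fold change, a Wald statistic (a score), a p-value and adjusted p-value, and a normalized expression signal for 7 libraries, per the file headers. Columns were read as samples by pulldown and replicate number.

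All deposited signal values (100% at a relative tolerance of 1e-06) were whole reads divided by a factor of the library. limma (version 3.58.1, R 4.3.3) with an empirical Bayes trend was fitted to log2(normalized reads + 1) for the 11174 genes whose mean reached 10, without covariates, and adjusted over them. Adding 1 makes log2 fold changes of genes with few reads smaller, while near-absent libraries weigh heavily on this scale. The limma values of kl-2, kl-3 and Dhc16F (-2.13, -3.92 and -1.92) were larger in size than the authors' values (-0.85, -1.49 and 0.08). edgeR (4.0.16, quasi-likelihood) and DESeq2 (1.42.0) were run on the recovered reads as alternatives. DESeq2 gave no p to 1987 genes. The fits were run on simulated counts with known changes and low spread between libraries. That does not test them at the wider library spread of the heavy chains. Summaries and figures were made in Python 3.11.15 (pandas 2.3.3, numpy 2.4.6, matplotlib 3.10.9).

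Members and gene lists were chosen with earlier results of these data known. Named were all members and, from each list, called genes or else the 2 with the highest mean, plus the 3 genes closest to the Y-linked profile. Read numbers of different genes also depend on transcript length and are no comparison of level. Coding lengths and protein sequences were not used here, which leaves out 2 planned descriptions, levels per kb and a class of long proteins. For 11952 of the 12051 gene identifiers a current name was found.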

Additional observations from a re-analysis of the deposited data

Results flagged for a closer look

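In groups of 4 libraries a value was singled out where its gap to the nearest other library was large against the whole range by Dixon's criterion, which chance meets in about 1 of 20 groups. This was applied to the eRpL22-like libraries of 37 genes, namely the heavy chains and the genes whose levels, fold changes or likeness to the Y-linked profile are given. Dhc98D stood at 6309 normalized reads in eRpL22-like replicate 3, against 1590 to 2281 in the other eRpL22-like libraries, and eRpL22 replicate 3 was high for it as well, at 8013. In eRpL22-like replicate 3, ctp stood at 7884. In eRpL22-like replicate 1, CG9492 stood at 122, and in eRpL22-like replicate 2 CG3339 stood at 104. In eRpL22-like replicate 4, Dlc90F was low at 2805, and nSyb and Mlc2 were high at 2474 and 11370.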

How the results depend on the processing

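No heavy chain passed 0.05 under any of the 17 alternatives, and the count of all genes passing was 0 in limma and edgeR except for 1 with quantile normalization, against 125 with DESeq2. The signs of kl-2, kl-3 and kl-5 held in all of them. Dhc16F was at 0.077 with edgeR and 0.077 with DESeq2. Dhc62B was at 0.0077 with a pseudocount of 10, 0.036 with library totals, 0.74 with quantile normalization, 0.60 with edgeR and 0.61 with DESeq2. With 1 library left out, values ranged from -3.22 to -0.62 for kl-2, -5.19 to -2.60 for kl-3, 0.12 to 0.83 for kl-5, -2.82 to 0.46 for Dhc16F, -0.027 to 1.04 for Dhc36C, -0.99 to 0.86 for Dhc62B, -0.66 to 0.50 for Dhc98D and -0.75 to 0.12 for Dnah3. Without single libraries the median ranged from -2.77 to -0.62 for the Y-linked and from -0.77 to 0.39 for the other heavy chains. For the intermediate and light chains it ranged from -0.44 to 0.015, for assembly factors from -0.42 to -0.027, for docking genes from -0.35 to 0.18, for cytoplasmic dynein from -0.23 to 0.21 and for Y-loop factors from -0.10 to 0.094. With library totals the medians of docking, cytoplasmic dynein and Y-loop factors were 0.027, 0.065 and 0.068, where the median of all genes moved by 0.095. edgeR and DESeq2 model mean reads, where limma averages logarithms. The cause of the sign changes was not tested for any gene.

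Replicate numbers showed no pairing of the libraries over all genes. Deviations from the pulldown mean correlated at 0.01 to 0.02 between libraries of the same number, and eRpL22-like replicate 3 correlated best with eRpL22 replicate 1. Genes with few reads, whose values spread widely between libraries, weigh on these correlations, so they cannot decide whether libraries were paired. With the replicate number as a block, 0 genes passed, and log2 fold changes were -2.02 for kl-2, -4.92 for kl-3, 0.23 for kl-5, -2.55 for Dhc16F, 0.42 for Dhc36C, -0.99 for Dhc62B and -0.0022 for Dhc98D. This block leaves eRpL22-like replicate 4 without a partner.

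Counting error at the mean reads of the heavy chains was 0.02 to 0.08 on the log2 scale, against library spread of 0.78 to 3.69. It does not describe the libraries with 0 to 8 reads of kl-2, kl-3 or Dhc16F, where so few reads limit the precision.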

Other observations

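Some cytoplasmic dynein genes had higher means with eRpL22-like, without passing the test. They are named after their values were seen. Of the 12 genes of their list, 4 were positive and 8 negative in limma, with a median of -0.03. Lis-1, a regulator of dynein attachment to microtubules, had 202, 262, 2328 and 723 normalized reads in eRpL22-like replicates 1 to 4, against 158, 148 and 60.3 in eRpL22 replicates 1 to 3. Its library values did not overlap, as for 5.14% of all genes tested, and its limma log2 fold change was 2.27 ± 1.42 (SE; unadjusted p = 0.117, adjusted p = 0.945), and 1.58 to 2.75 with 1 library left out. Dlic, the light intermediate chain of cytoplasmic dynein, had 3330, 795, 278 and 969 normalized reads in eRpL22-like replicates 1 to 4, against 253, 240 and 619 in eRpL22 replicates 1 to 3, with a limma log2 fold change of 1.46 (adjusted p = 0.945), which was 0.84 without eRpL22-like replicate 1 and 2.03 without eRpL22-like replicate 3. Dhc64C, the heavy chain of cytoplasmic dynein, had 1815, 124, 812 and 8.42 in eRpL22-like replicates 1 to 4, against 35.9, 3.06 and 648 in eRpL22 replicates 1 to 3, and its values overlapped (limma log2 fold change 2.15, adjusted p = 0.945). Its fold change was 0.40 without eRpL22 replicate 2, 1.10 without eRpL22-like replicate 1, 3.63 without eRpL22-like replicate 4 and 4.06 without eRpL22 replicate 3.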
